A study of Mus musculus with 5 samples.

Results

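The 10 genes described here, Zfp42, Fbxo15, Dppa2, Dppa3, Dppa4, Dppa5, Eras, Utf1, Tdgf1 and Tcl1, are markers of undifferentiated mouse embryonic stem cells (ESCs), among them several ESC-associated transcripts (ECATs) and developmental pluripotency associated (Dppa) genes. They were chosen by name, and every probe that carried one of these names was used, which gave 12 probes for 10 genes out of 41174 probes for 27670 genes on the array. Zfp42 and Dppa5 had 2 probes each and the other 8 genes had 1. The study asked what happens to gene expression in ESCs without ECAT11 (L1td1), another transcript of this class, and hybridized Cy3-labelled total RNA of 5 ESC lines, 1 array per line, to one-colour Agilent oligonucleotide arrays.

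Wild type was represented by 2 lines. RF8 is the parental line, of 129sv origin and labelled male, and #620-2 is of C57BL6/129sv origin and labelled female. The 3 lines without ECAT11, called ECAT11EGFP/EGFP, carried an EGFP cassette in place of its coding region on both alleles. They were #620-6, labelled female, and #757-1 and #757-2, both labelled male, and all 3 were of C57BL6/129sv origin. All lines grew on gelatin in serum medium with LIF, the cytokine that keeps mouse ESCs undifferentiated. Each line except RF8 was derived on SNL feeder cells from an embryo of a cross of ECAT11 carriers, so a line is 1 embryo and differs from the others in more than the ECAT11 genotype. RF8, #620-2 and #620-6 lay on slide 1, and both #757 lines lay on slide 2. None of 6 names and accessions that RefSeq gives for ECAT11 was found in the array's annotation, so its loss was not checked here. Levels below are log2 processed signals minus the 75th percentile of the same array, which ranged from 687.5 to 794.4 signal units, so a level of 0 is the 75th percentile of that array. Slide 1 arrays had 26412 to 27202 probes well above background, the lowest at levels of -6.22 to -5.90. Slide 2 arrays had 21285 to 22100, the lowest at -4.49 to -4.22. Each line had 1 array and each marker probe 1 spot. Labels do not tell whether a line was cultured more than once, and p-values therefore rest on the spread between lines, which limma shares over probes. The p-values count #757-1 and #757-2 as separate lines, although these share a number in their names, a sex label and a slide.

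In ESCs these genes sit downstream of the network built by Pou5f1, Sox2 and Nanog, and they are shut off when cells leave the undifferentiated state. Some members, Zfp42 and Dppa3 above all, are known to vary from cell to cell within one ESC culture, while others are expressed more evenly. The proteins do different jobs. Zfp42 (Rex1) is a zinc finger factor related to YY1, and Dppa2 and Dppa4 are a pair of DNA-binding chromatin proteins. Dppa3 (Stella) acts on the DNA methylation of the oocyte and early embryo, and Utf1 binds chromatin at bivalent genes. Dppa5 binds RNA, Fbxo15 is an F-box protein of an SCF ubiquitin ligase, Eras is a Ras-like GTPase, Tcl1 is a coactivator of Akt, and Tdgf1 (Cripto) is the co-receptor of Nodal.

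The sequences that matter most are those of the 2 probes of Zfp42, because this gene differed most between lines and the probes allow that difference to be read more than once. They overlap. The brighter probe was placed at chr8:42080746-42080805 (minus strand) of genome build mm7 and the dimmer one at chr8:42080786-42080857, a stretch of 72 positions for a probe of 60 bases. The first 30 bases of the brighter probe and the last 30 of the dimmer one are given 5′ to 3′, with the 20 bases that both contain in capitals.
Zfp42 brighter probe: TGTGCTATTGAAGGGGATGGggacttttgc
Zfp42 dimmer probe: ccttactataTGTGCTATTGAAGGGGATGG
Because 20 of 60 bases are common to both, the probes are not independent readings of the transcript. The 2 probes of Dppa5, in contrast, shared no run longer than 5 bases. The brighter one was placed at chr9:78441271-78441330 and the dimmer one on another chromosome, at chr5:28571256-28571315. RefSeq has the gene (Dppa5a) on chromosome 9, so what the dimmer probe measures is uncertain, although both carry the Dppa5 name.

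Promoter sequence from RefSeq (build GRCm38.p6) was used for 5 of the 10 genes, Zfp42, Utf1, Tdgf1, Tcl1 and Eras, each as a window of 250 bases before and 50 after the gene start. That of Zfp42 is shown since both probes of this gene differed between lines. The 250 bases before its start, chr8:43307010-43307259 on the minus strand, read as follows, with matches to the searched motifs in capitals.
Zfp42 promoter: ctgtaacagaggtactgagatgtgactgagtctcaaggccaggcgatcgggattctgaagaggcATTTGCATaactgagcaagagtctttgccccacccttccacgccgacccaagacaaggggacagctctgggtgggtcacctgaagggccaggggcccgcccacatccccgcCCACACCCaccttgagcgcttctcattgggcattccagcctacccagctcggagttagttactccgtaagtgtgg
The first capital run is the octamer motif ATGCAAAT, read on the opposite strand, 186 bases before the start. The second is the KLF motif GGGTGTGG, also on the opposite strand, 75 bases before the start. Of 32851 mouse promoter windows of this length, 1.74% held the octamer letters and 3.56% the KLF letters on either strand. The letters of the other motifs searched on both strands were CATTGTT for SOX factors, TCAAGGTCA for ESRRB, CACGTG for the E-box and TATAAA for the TATA box. They were in 3.78%, 0.423%, 7.15% and 13.6% of all windows and not in that of Zfp42. The windows of Utf1, Tdgf1, Tcl1 and Eras held none of these 6 motifs, which says only that these letters are absent from these windows.

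All 12 marker probes were well above background in all 5 lines, and none was saturated or marked as an outlier spot, so every line expressed all 10 genes by this measure. The scanner software's error for each of these spots was 10%, and probes spotted at least 5 times on an array had a median SD of 0.0549 to 0.0722 on the log2 scale. The ESC label was checked with Pou5f1, Sox2, Nanog, Esrrb, Sall4 and Lin28a, all 6 of which were well above background in every line, with a summed level of 51.9 times the 75th percentile in RF8 and 72.8 to 80.6 times in the other lines. Among markers of other cells, the 8 fibroblast or feeder genes summed to 58.3 times the 75th percentile in #620-2 and 61.1 in #620-6, against 16.3 in RF8, 2.68 in #757-1 and 4.99 in #757-2, with S100a4 alone at a log2 level of 5.61 and 5.70 in the #620 lines and of -1.66 to -0.06 in the others. Without S100a4 the sum was 9.44 in #620-2 and 9.01 in #620-6, against 15.4 in RF8, 2.36 in #757-1 and 4.60 in #757-2. Of the 8 genes 5 were higher in both #620 lines than in all others, and 3, Col1a1, Col1a2 and Postn, were highest in RF8. All 8 were well above background in both #620 lines and 7 in each other line, where Lum was not. The 6 primed epiblast genes summed to 118 times the 75th percentile in RF8, 90.4 and 90.3 in the #757 lines, 59.9 in #620-2 and 31.6 in #620-6. Trophoblast markers summed to between 27.0 times the 75th percentile (#620-2) and 92.9 (RF8), and germ cell markers to between 32.8 (#757-1) and 90.3 (#620-6). Primitive endoderm markers summed to 2.06 in #620-2 and 1.80 in #620-6, against 0.921 (RF8) to 1.05 (#757-1) in the others. Their median log2 level was -1.90 in #620-2 and -2.24 in #620-6, against -4.44 (RF8) to -3.36 (#757-1) in the others. Few genes made the larger sums. In RF8 the log2 levels were 5.10 for Krt8 and 5.76 for Krt18, and -4.68 to 1.94 for the other trophoblast genes. Tex19.1 was at 6.37 in #620-6 and the other germ cell genes at -1.87 to 1.74. Among primed epiblast genes in RF8, Pou3f1 (6.08) and Dnmt3b (5.51) stood above the others, at -4.01 to 1.99.

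**Figure D1:**
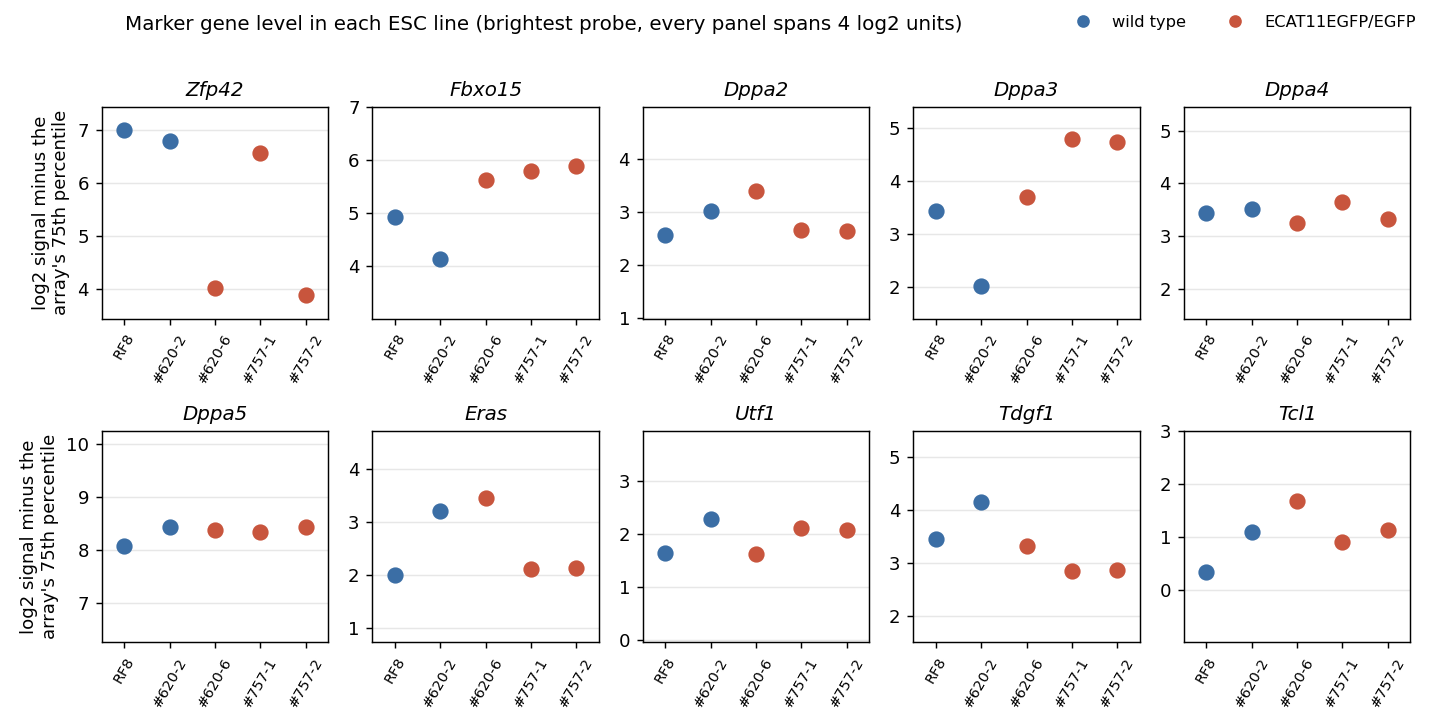
Level of the 10 marker genes in each ESC line, as the log2 signal of the brightest probe minus the 75th percentile of the array. Each point is 1 array, blue for wild type and red for ECAT11EGFP/EGFP, and each panel spans 4 log2 units, so heights can be compared between panels only as differences between lines. Zfp42 is low in #620-6 and #757-2, Fbxo15 and Dppa3 are lowest in #620-2, Eras is high in both #620 lines, and Dppa4 and Dppa5 are nearly level.

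Zfp42 differed most. On its brighter probe RF8 had a log2 level of 7.00, #620-2 one of 6.80 and #757-1 one of 6.56, whereas #620-6 had 4.01 and #757-2 had 3.87. The lines thus fell into a high set of RF8, #620-2 and #757-1, whose members differed by at most 1.36-fold, and a low set of #620-6 and #757-2, which differed by 1.10-fold. The highest and lowest line were 8.75-fold apart. The dimmer probe gave the same order of high and low lines with a wider gap, at log2 levels of 6.26 for RF8, 5.97 for #620-2 and 5.80 for #757-1 above 1.32 for #620-6 and 1.35 for #757-2. The difference between the extremes was 30.6-fold on this probe. In RNA from a whole culture, fewer cells with Zfp42 and less Zfp42 RNA per cell cannot be told apart. A probe's signal also depends on how well the transcript matches it, and the sequence of Zfp42 in these lines of 129sv and mixed C57BL6/129sv origin was not tested, so the differences are differences of signal.

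The 2 low lines did not share a slide or a sex label, and the 3 lines without ECAT11 were found in both sets. Between #757-1 and #757-2, which share genotype, strain label, sex label and slide, Zfp42 was 6.42-fold lower in #757-2 on the brighter probe and 22-fold lower on the dimmer one. Among 20743 probes well above background in both lines these differences ranked 10th and 2nd by size. Of the other 9 genes Dppa4 differed most, by 0.33 on the log2 scale, and the smallest difference was 0.01. The same 2 lines had a median absolute log2 difference of 0.15 over all probes well above background in both. Their ESC markers summed to 74.4 and 72.8 times the 75th percentile, their primed epiblast markers to 90.4 and 90.3, their trophoblast markers to 55.4 and 60.9, and their primitive endoderm markers to 1.05 and 0.966. Fibroblast markers were at 2.68 and 4.99, and germ cell markers at 32.8 and 49.0, in the same order. Between #620-2 and #620-6, Zfp42 was 6.91-fold lower in #620-6 on the brighter probe and 25.1-fold lower on the dimmer one, ranks 87 and 11 of 25610 probes.

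The probes most like Zfp42 over the 5 lines were looked up among 1778 named probes of other genes with a range of at least 50% of its own. The 3 with the highest Pearson r were one of Klhl26 (r = 0.981) and both of Kbtbd11 (r = 0.978 and 0.971). Only 5 of the 1778 had r over 0.95, and since these are correlations over 5 arrays they are descriptions. For Klhl26 the log2 level was 0.41 (RF8), 0.36 (#620-2) and -0.22 (#757-1) in the lines with high Zfp42 and -1.30 (#620-6) and -1.55 (#757-2) in the lines with low Zfp42. The brighter Kbtbd11 probe ran from 1.40 in RF8, 0.82 in #757-1 and 0.18 in #620-2 down to -3.79 in #757-2 and -4.77 in #620-6. This probe had the largest difference of all between #757-1 and #757-2. All 3 probes lie on chromosome 8, as Zfp42 does, Kbtbd11 at chr8:15003552-15003611 and chr8:15007303-15007362 and Klhl26 at chr8:68905391-68905450 (mm7).

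**Figure D2:**
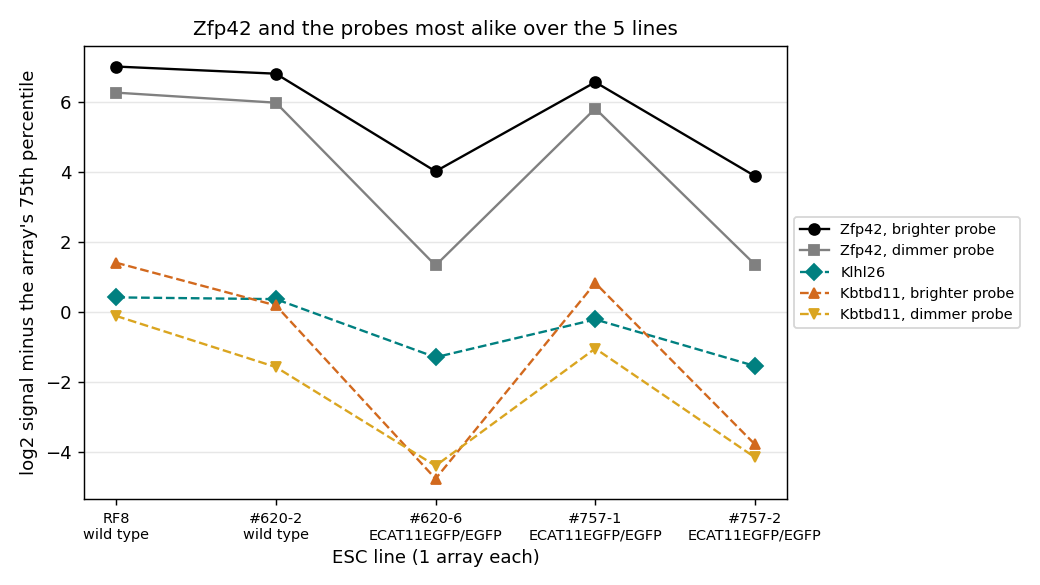
Log2 level in each line of both Zfp42 probes and of the 3 probes most like Zfp42, from Klhl26 and Kbtbd11. Each point is 1 array, and lines connect the points of a probe. Every probe shown is lowest in #620-6 and #757-2, the 2 lines with Zfp42 at 4.01 and 3.87.

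Because these genes share a chromosome, the probes around Zfp42 were examined after these values were seen. Within 2 Mb on either side the array had 19 probes besides those of Zfp42, and 8 of them were well above background in all lines. Of these 8, 6 were lower in #620-6 than in #620-2 and 6 lower in #757-2 than in #757-1, while 1 exceeded 2-fold in the #757 pair and 0 in the #620 pair. The 8 probes are not 8 genes, since Fat1 and Pcm1 had more than 1 each. Fat1 was lower on all of its probes, by -0.33 to -0.15 in the #620 pair and -0.62 to -0.24 in the #757 pair. The share of all probes lower in each pair was not computed, so these counts do not show a drop of the region. Triml1, the nearest such neighbour at 165 kb, stood at 1.80 in #620-2 and 1.75 in #757-1 on the log2 scale, at 1.19 in #620-6 and 1.09 in #757-2, and at 1.12 in RF8. Triml1 was thus lower by 0.61 in #620-6 than in #620-2 and by 0.66 in #757-2 than in #757-1, but RF8 was low as well. A dimmer Triml1 probe, 159 kb away and well above background in all lines but #757-2, read -3.27 in RF8, -3.00 in #620-2 and -3.56 in #757-1, and -4.49 in #620-6 and -5.38 in #757-2. On that probe RF8 was with the high lines and #620-6 differed from #620-2 by -1.49 on the log2 scale, while no difference is given for the #757 pair, since the level of #757-2 was not well above background. Frg1, the probe among the 8 that exceeded 2-fold, differed by -0.83 in the #620 pair and -1.18 in the #757 pair. The differences at Zfp42, -2.79 and -2.68 on its brighter probe, were larger than those of all 8 neighbours. Over the whole of chromosome 8, 27 of 379 probes more than 2-fold apart between the #757 lines lay on it, or 7.12%, against 5.25% of all probes measured in both. In the #620 pair the shares were 4.94% and 5.06%. Of those 27 probes 22 were lower in #757-2, against 127 of the 379. In the #620 pair 53 of 90 such probes on chromosome 8 were lower in #620-6, against 788 of 1821 on the whole array. Between RF8 and #620-2, which both had high Zfp42, 140 of 163 such probes on chromosome 8 were lower in #620-2, against 1222 of 2601.

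**Figure D3:**
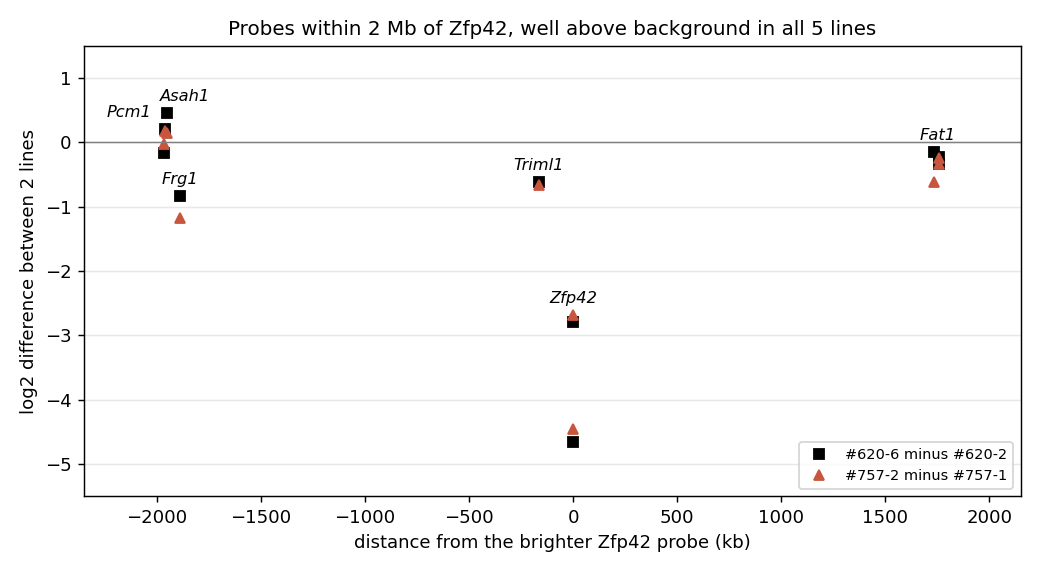
Log2 difference between the lines of a pair for probes within 2 Mb of Zfp42 that were well above background in all 5 lines, against their distance from the brighter Zfp42 probe in kb. Black squares are #620-6 minus #620-2 and red triangles #757-2 minus #757-1. The 2 Zfp42 probes lie between -4.65 and -2.68, and the neighbours between -1.18 and 0.46.

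Between the genotypes, the wild-type lines averaged 6.90 ± 0.14 (SD, n = 2) for Zfp42 and the ECAT11EGFP/EGFP lines 4.81 ± 1.51 (SD, n = 3). The log2 fold change of the brighter probe, ECAT11EGFP/EGFP minus wild type, was -2.09 (standard error 0.92), with an adjusted p of 0.721 in the limma fit over all 28972 probes present on at least 1 array. For the dimmer probe it was -3.29 (standard error 1.55) with an adjusted p of 0.747 by limma. The groups did not overlap, yet #757-1 lay only 0.24 below #620-2 on the brighter probe. Without #757-1 the log2 fold change was -2.96, and with #757-2 left out instead it was -1.62.

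No marker probe was called between the genotypes, at an adjusted p under 0.05 in limma and more than 2-fold. The share called among all probes was 0.00345%, a single probe (1 of 28972), of Ubd. At an unadjusted p under 0.05, limma gave 2 of the 12 marker probes, those of Fbxo15 and Dppa3, against 7.6% of all probes. Both were higher in ECAT11EGFP/EGFP lines, where the share over all probes was 4.07%. The methods' t-test gave 1 such marker probe and no call, and with the slide as a block limma gave 0. The groups did not overlap for 4 of the 10 genes, Zfp42, Fbxo15, Dppa3 and Tdgf1, against 23.5% of all probes tested. Of the brightest probes 5 were higher and 5 lower in ECAT11EGFP/EGFP lines, with a median log2 fold change of 0.04 against -0.02 for all probes. With 2 lines against 3, an exact permutation test cannot give a p below 0.1.

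**Figure D4:**
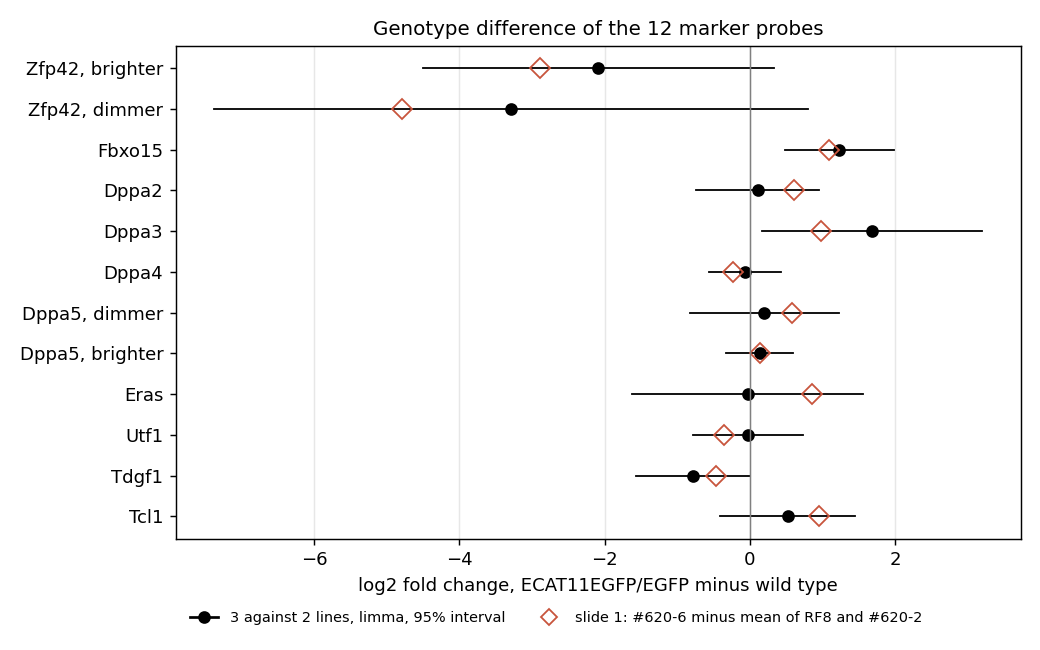
Log2 fold change of the 12 marker probes, ECAT11EGFP/EGFP minus wild type, with the 95% interval of the limma fit (black), and the same difference within slide 1 (#620-6 minus the mean of RF8 and #620-2, red diamonds). The intervals of Fbxo15, 0.48 to 1.99, and Dppa3, 0.16 to 3.20, lie above 0 before adjustment, and those of Zfp42 are the widest.

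Fbxo15 was higher in every ECAT11EGFP/EGFP line. Its log2 level was 4.93 in RF8 and 4.13 in #620-2, against 5.61 in #620-6, 5.79 in #757-1 and 5.88 in #757-2. The 3 lines without ECAT11 lay within 1.20-fold of one another, while the wild-type lines were 1.74-fold apart. The probe is at chr18:85330434-85330493. The log2 fold change was 1.23 (standard error 0.29, unadjusted p 0.00918, adjusted p 0.471, limma). Within slide 1 it was 1.08, and without #620-2 it was 0.83. The 4 partners of F-box proteins in SCF ligases that were listed, Skp1a, Cul1, Rbx1 and Cand1, had 10 probes, of which 8 were higher and 2 lower, none of them with an unadjusted p under 0.05. Their median log2 fold change was 0.15.

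Dppa3 varied in a like order. From low to high, #620-2 had a log2 level of 2.02, RF8 of 3.44, #620-6 of 3.71, #757-2 of 4.73 and #757-1 of 4.80. Here #620-2 was lowest, RF8 and #620-6 stood in the middle, 1.20-fold apart, and the #757 lines were highest, 1.04-fold apart. The extremes differed 6.83-fold. The log2 fold change was 1.68 (standard error 0.58, unadjusted p 0.0363, adjusted p 0.61, limma). Within slide 1 it was 0.98, and without #620-2 it was 0.97. A fit with the slide as a block returns the slide 1 difference by construction. Because both #757 lines lie on slide 2, which holds no wild-type array, their higher level and the slide cannot be told apart. Over the 5 lines Dppa3 and Fbxo15 had a Pearson r of 0.96. Tdgf1 ran the opposite way, with an r of -0.96 with Fbxo15 and, rounded, of -1 with Dppa3. These are descriptions over 5 arrays, and these genes order the lines in nearly one way.

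The probes most like Dppa3 were those of Rasgrp2, Sox21 (r = 0.997 for both) and Gstm1 (r = 0.996), out of 2316 candidates of which 63 had r over 0.95. For Fbxo15 they were Otop1 (r = 0.997), Cd2ap and Msrb2 (r = 0.996 or more), out of 5491 candidates of which 115 had r over 0.95. Rasgrp2 ran from 3.47 in #620-2 to 5.50 in #757-1, and Cd2ap from 2.41 in #620-2 to 3.72 in #757-1. Dppa3 protein acts through Uhrf1, the factor that brings Dnmt1 to replicated DNA. The 8 listed DNA methylation genes had 13 probes tested, 6 higher and 7 lower in ECAT11EGFP/EGFP lines, none with an unadjusted p under 0.05. Uhrf1 RNA was level, at 4.25 to 4.60 on its brighter probe, over lines in which Dppa3 differed 6.83-fold. Its protein was not measured, so this says nothing of how Dppa3 acts on it. On the brightest probes the log2 range was 1.65 for Dnmt3a, 1.62 for Dnmt3l, 1.61 for Dnmt3b and 1.28 for Tet2. It was 0.54 for Tet3, 0.34 for Uhrf1, 0.30 for Dnmt1 and 0.24 for Tet1.

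Tdgf1 was lower in every ECAT11EGFP/EGFP line. Its log2 level was 3.44 in RF8 and 4.15 in #620-2, and 3.32 in #620-6, 2.85 in #757-1 and 2.87 in #757-2. The gap between the groups was narrow, since #620-6 lay only 1.08-fold below RF8. The log2 fold change was -0.78 (standard error 0.30, unadjusted p 0.051, adjusted p 0.66, limma). Within slide 1 it was -0.47, and without #620-2 it was -0.43. Both #757 lines were lowest and lie on slide 2, so for Tdgf1 too line and slide cannot be told apart. Of the 14 genes listed around its pathway 13 were tested with 19 probes, 10 higher and 9 lower. Only Cfc1, the other EGF-CFC co-receptor of Nodal, had an unadjusted p under 0.05, its log2 fold change being 0.67 (p 0.0268, adjusted p 0.582, limma). Nodal itself, the ligand, was ordered from RF8 at a log2 level of 2.75 over #757-2 (2.98), #757-1 (3.16) and #620-2 (3.53) to #620-6 (3.90). The order of the lines for Nodal was not that of Tdgf1. Lefty1, a target and inhibitor of Nodal, had a log2 fold change of -0.38 (adjusted p 0.747, limma).

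Eras and Tcl1, which both act on the PI3K and Akt pathway, showed no genotype difference past the test. Eras, on the X chromosome, had a log2 level of 3.20 in #620-2 and 3.45 in #620-6, and of 1.99 in RF8, 2.10 in #757-1 and 2.13 in #757-2. The lines labelled female were higher than all lines labelled male, by 2.11-fold or more, and neither set varied by over 1.19-fold. Dppa2, on chromosome 16, was also highest in these lines, at 3.02 in #620-2 and 3.40 in #620-6, against 2.57 to 2.66 in the others. S100a4 was high in the same 2 lines, as were 5 of the 8 fibroblast or feeder markers in all, while the sum of the other 7 was highest in RF8. Their part in the Eras level was not tested. The 2 lines also share the number 620 in their names and lie on slide 1, as RF8 does. The female label and the number 620 mark the same lines here and cannot be told apart. The genotypes differed by a log2 fold change of only -0.03 (standard error 0.60 and adjusted p 0.998 by limma). With the slide as a block, which compares #620-6 alone with RF8 and #620-2, it was 0.86.

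Tcl1 was lowest in RF8, at 0.35, and was 0.92 in #757-1, 1.11 in #620-2, 1.14 in #757-2 and 1.68 in #620-6. The genotypes overlapped (log2 fold change 0.52, standard error 0.35, adjusted p 0.849, limma), and leaving out RF8 brought the fold change to 0.14. Among 20 listed genes around Akt, 18 were tested with 34 probes, of which 20 were higher and 14 lower. An unadjusted p under 0.05 was found for 2 of these probes. They were those of Pik3cb, a catalytic subunit of PI3K (log2 fold change 0.58, p 0.0289), and Gsk3b, a kinase that Akt inhibits (0.49, p 0.0246). Their adjusted p-values were 0.591 and 0.571 in limma.

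Dppa2, Dppa4, Dppa5 and Utf1 differed least between the lines. Dppa4 spread over 1.32-fold, its log2 level being 3.25 (#620-6), 3.32 (#757-2), 3.44 (RF8), 3.52 (#620-2) and 3.65 (#757-1). Dppa5 had on its brighter probe a log2 level of 8.07 in RF8 and, in the other lines, of 8.34 (#757-1), 8.38 (#620-6), 8.42 (#620-2) and 8.43 (#757-2). The spread was 1.28-fold, set by RF8 alone. On its dimmer probe, the one placed on chromosome 5, RF8 was again lowest at 5.50, the #757 lines were at 6.01 each, and the #620 lines at 6.52 and 6.59, a spread of 2.13-fold. RF8 was lowest on both, and it is uncertain whether the dimmer probe reads Dppa5.

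Dppa2 was at a log2 level of 3.02 in #620-2 and 3.40 in #620-6, and below both at 2.57 (RF8), 2.66 (#757-1) and 2.64 (#757-2). It was higher in both #620 lines, where Dppa4 was not, although the genes adjoin on chromosome 16, at chr16:48078749-48078808 and chr16:48053770-48053829 (mm7). Utf1 lay lowest in #620-6 (log2 level 1.62), followed by RF8 (1.65), #757-2 (2.08), #757-1 (2.11) and #620-2 (2.29). The highest and lowest lines were thus the 2 #620 lines. The adjusted p of these 4 genes was 0.938 or more on the brightest probe (limma). The genes known to lie under Dppa2 and Dppa4, which include Zscan4c, Tcstv1, Tcstv3 and Dub1, had 12 probes of 7 genes tested, 4 higher and 8 lower, with a median log2 fold change of -0.20. One, the dimmer probe of Zfp352, had an unadjusted p under 0.05, but it was well above background in #620-6 alone, and no fold is given for it because the other 4 lines were not well above background. The brighter Zscan4c probe was highest in #620-6 (log2 level 1.98), then #620-2 (0.68), RF8 (-0.25), #757-2 (-0.82) and #757-1 (-1.35). The 6 Polycomb genes listed around Utf1 had 10 probes, 6 higher and 4 lower, none with an unadjusted p under 0.05.

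None of the listed transcription factors of the ESC network was called between the genotypes. Of 15 listed transcription factors of the ESC network 14 were tested with 24 probes, 19 higher and 5 lower in ECAT11EGFP/EGFP lines, with a median log2 fold change of 0.25, where 47.4% of all probes were higher. RF8 was the lowest line on 13 of these 24 probes, against 21.3% of all probes measured in all lines. The list held Tcf3 by its present symbol, a different gene from Tcf7l1, and the Tcf3 probes had log2 fold changes of 0.04 and -0.01. Unadjusted p-values under 0.05 were found for both probes of Tcf7l1, a repressor of the network (log2 fold change 0.39 and 0.58, p 0.0463 and 0.0252), and for the dimmer probe of Sall4 (1.25, p 0.013). The adjusted p-values of these 3 probes were 0.495 to 0.647 in limma, and the brighter Sall4 probe had a log2 fold change of 0.26. The other ECAT genes listed, Nanog, Gdf3, Sox15 and Dnmt3l, were all higher, with log2 fold changes of 0.25 to 0.74 and unadjusted p-values of 0.0886 or more. For Nanog, Sox15 and Dnmt3l RF8 was the lowest line, and the Nanog level of #620-2, 3.96, was above that of #757-1 (3.44) and #757-2 (3.71). No probe of the 8 lists was called, of 124 different probes tested.

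**Figure D5:**
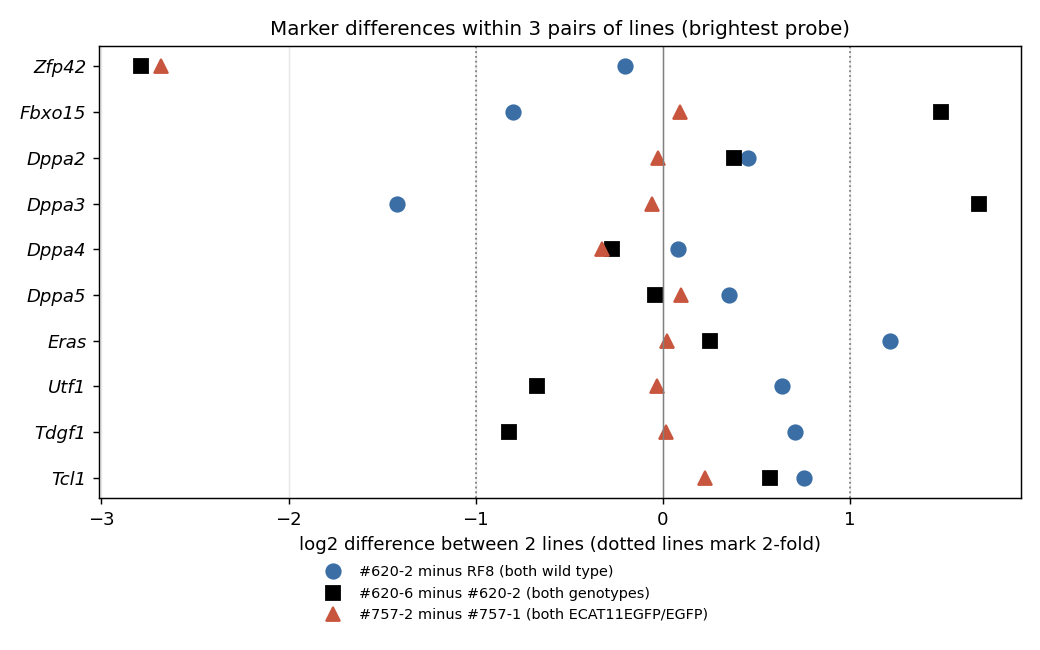
Log2 difference of each marker gene within 3 pairs of lines on its brightest probe. Blue circles are #620-2 minus RF8, both wild type, black squares #620-6 minus #620-2, of both genotypes, and red triangles #757-2 minus #757-1, both ECAT11EGFP/EGFP, with dotted lines at 2-fold. Within the #757 pair only Zfp42 passes 2-fold, within the #620 pair Zfp42, Fbxo15 and Dppa3 do, and between the wild-type lines Dppa3 and Eras do.

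The size of the genotype differences can be read against differences between lines of one genotype. Over all 5 lines, 6 of the 10 genes had a range above 2-fold, against 23.5% of the 20630 probes measured in all lines, and 2, Zfp42 and Dppa3, had one above 4-fold, against 4.96%. The median range of the 10 genes was 1.31 on the log2 scale and that of all these probes 0.60. Between the wild-type lines RF8 and #620-2, 2 markers were more than 2-fold apart, Dppa3 and Eras, where 10.3% of all probes were. Between #620-2 and #620-6, the pair with different genotype but the same strain and sex labels and slide, 3 were, Zfp42, Fbxo15 and Dppa3, against 7.11% of all probes. Between #757-1 and #757-2, of one genotype, 1 was, Zfp42, against 1.83%. Dppa3 differed 2.68-fold between the wild-type lines and 3.22-fold between #620-2 and #620-6, and Zfp42 differed 6.42-fold within the ECAT11EGFP/EGFP genotype.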

How the data were processed

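Total RNA of 5 mouse ESC lines was measured on one-colour 60-mer arrays. The deposited scanner files hold spot intensity values that the authors extracted with Feature Extraction 9.5.3.1, background-subtracted, and the positions of probes in build mm7. The deposited table of log2 values was made by the authors with GeneSpring GX 11.5 after scaling to the 75th percentile. It was used as an alternative, with column medians of -0.0225 in RF8, 0 in #620-2, -0.101 in #620-6, 0.0575 in #757-1 and 0.0772 in #757-2. Over 20630 probes it followed the levels computed here with a slope of 0.999, so its scale is log2, while its centring per probe is not given in the sources used here.

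The processed signal was divided by the 75th percentile of the non-control spots of its array and log2-transformed. Spots marked as outliers (0.335%) were set missing, and spots of a probe were averaged. A gene was summarised by its brightest probe. Genotypes were compared with limma 3.58.1 (R 4.3.3) over the 28972 probes well above background on at least 1 array, with Benjamini-Hochberg adjustment. Scripts were tested on simulated data. Probe names were updated through RefSeq, 22951 by accession and 9768 by symbol or synonym, and 8455 kept the file's name. The 10 markers, the pathway and cell marker lists and the tests were chosen with earlier results of these data known. Named besides the markers were list genes with an unadjusted p under 0.05 and, for the 3 markers with the largest range, the 3 most correlated probes. Other genes named were chosen after their values were seen. 1 gene of the lists is not reported here. The number of arrays limits the precision.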

Additional observations from a re-analysis of the deposited data

How the results depend on the processing

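None of the 12 marker probes was called in any of 15 alternatives, which is no measure of stability. They were other background correction, quantile normalization, the deposited log2 values, 2 other filters, marked spots kept, slide or sex label in the model, a variance trend, the methods' t-test and each line left out. The smallest adjusted p in any of them was 0.191, for Dppa3 with the sex label as a covariate. The number of marker probes with an unadjusted p under 0.05 ran from 0 (slide as a block) to 4 (sex label as a covariate). The genes with a range above 2-fold numbered 6 in the 5 other processing alternatives and 4 to 6 with a line left out, lowest without #620-2, where the ranges of Fbxo15, Dppa3 and Tdgf1 were 0.95, 1.35 and 0.59 on the log2 scale.

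The log2 fold changes of Zfp42 (-2.96 to -1.62), Fbxo15 (0.83 to 1.63), Dppa3 (0.97 to 2.39), Tdgf1 (-1.13 to -0.43) and Tcl1 (0.14 to 0.95) kept their sign in all 16 alternatives, including the mean over the probes of a gene. Eras turned from -0.03 to 0.86 with the slide as a block and to 0.18 with the sex label, and ran from -0.64 to 0.57 with a line left out. Other signs turned only when a line was left out, where Dppa2 ran from -0.14 to 0.33, Dppa4 from -0.19 to 0.01, Dppa5 from -0.04 to 0.31 and Utf1 from -0.35 to 0.29. With the slide as a block the genotype difference is that of slide 1, with #620-6 alone for ECAT11EGFP/EGFP, since slide 2 holds no wild-type array. The cause of the turned signs was not tested. No paired analysis was made. The line names of the 2 genotypes share only 1 number, 620, and its lines #620-2 and #620-6 are compared directly. What the number stands for is not stated in the names.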
